A study of Homo sapiens with 24 samples.

Results

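The genes described here belong to 4 signalling families, TGF-beta, BMP, WNT and NOTCH, and were followed through maps of N6-methyladenosine (m6A), a methyl group that cells add to adenosines of their messenger RNA. Members were all genes whose symbol starts with SMAD, BMP, BMPR, TGFB, ACVR, WNT, FZD, LRP, NOTCH, JAG, DLL or AXIN followed by a digit or a letter and a digit, without antisense genes, and whose transcript held a peak in at least 1 deposited list. The rule found 60 genes of 9560 with a peak in any list. Of 94 protein-coding symbols of this form in the RefSeq gene table, 59 had a peak, and the 60th member is the noncoding TGFB2-OT1.

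The study used U2OS, a human osteosarcoma cell line, as wild type (WT) cells and as a knockout (KO) of METTL3, the enzyme that writes most m6A in the nucleus. Cells of every group were grown with 10 µM BrdU, a thymidine analogue. They were left without UV or given UVC at a dose of 50 J and collected after 2 min. RNA bound by an m6A antibody (IP) and its input were sequenced from polyadenylated RNA, with 3 IP libraries each for WT and KO minus UV, 4 for WT plus UV and 2 for KO plus UV. The labels do not say whether the knockout line is 1 clone, and peak lists give no transcript levels with which to check the line or the knockout.

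The data analysed were 4 deposited peak lists, 1 for each condition over all of its libraries, and each is named below by its condition. A peak is given by its first and last base along a RefSeq transcript, with no score and no read count, so the depth behind it is unknown. There are no replicate values and no test between conditions was possible. The ranges in parentheses after shares are 95% Wilson intervals, which cover counting error only. A peak absent from a list can reflect less methylation, a lower level of the transcript or fewer libraries, and these cannot be told apart here. Nor do the lists show whether METTL3 made a listed peak: KO minus UV held 13852 peaks and WT minus UV 13989. Each list enters more than 1 of the comparisons below.

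In these pathways ligands bind receptors at the cell surface. TGF-beta and BMP ligands bring together type I and type II receptor kinases, which phosphorylate receptor SMAD proteins that enter the nucleus with SMAD4, while SMAD6 and SMAD7 inhibit the process. WNT ligands bind Frizzled receptors and the co-receptors LRP5 and LRP6, which draws AXIN away from the complex that destroys beta-catenin. NOTCH receptors are cut after contact with JAG or DLL ligands on a neighbouring cell, and their inner part then moves to the nucleus and acts on transcription. In bone-forming cells, the lineage from which osteosarcoma arises, BMP and WNT signals promote differentiation.

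Most members carried peaks in every condition. Of the 60, the list WT minus UV held 51 (85.0%, 73.9 to 91.9) and WT plus UV held 55 (91.7%, 81.9 to 96.4). The list KO minus UV held 48 (80.0%, 68.2 to 88.2) and KO plus UV held 40 (66.7%, 54.1 to 77.3). The same shares over all genes with a peak were 74.6%, 83.4%, 72.9% and 57.7%. The order of the 4 lists was the same for members and for all genes, and the lowest value belongs to the list with 2 IP libraries. A peak in every list was found on 35 members (58.3%, 45.7 to 69.9), against 41.2% of all genes. The lists held 133, 123, 127 and 90 member peaks in the order above, and 13989, 15465, 13852 and 9471 peaks in all, so WT plus UV was highest over all peaks but not over those of members. This order is also that of any 4 peak numbers given below for a gene.

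Members with a peak carried 2.61, 2.24, 2.65 and 2.25 peaks each in that order, against 1.94, 1.92, 1.97 and 1.7 for all genes with a peak. The median furthest peak end was base 2310 for members and base 1849.5 for all genes, and the part of transcript length in the peak numbers was not tested. Median peak widths of members were 190, 197, 192 and 170 bases, against 186, 189, 182 and 176 for all peaks. Between 13 and 20 members per list rested on a single peak. Members with at least 5 peaks numbered 7, 6, 6 and 2.

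**Figure D1:**
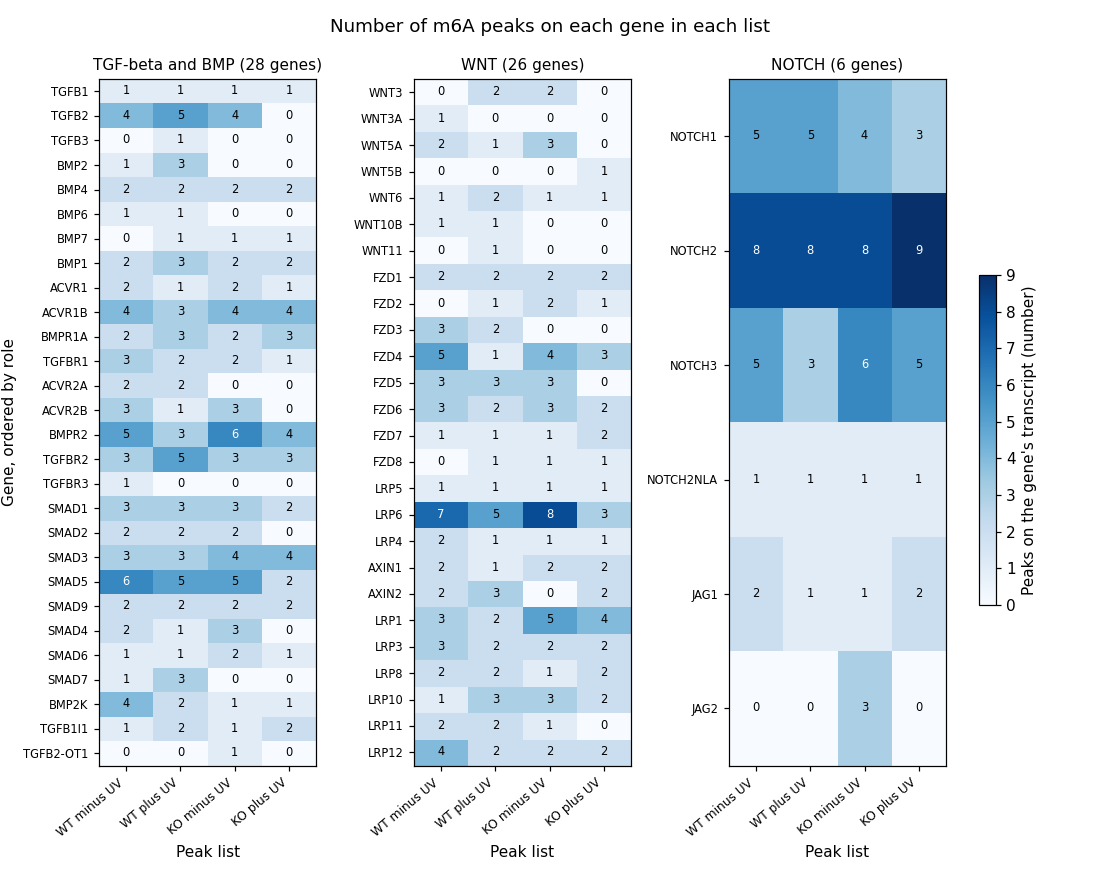
Number of peaks on each of the 60 genes (rows, ordered by role within 3 pathways) in each of the 4 lists (columns); each cell prints the number of peaks, and darker blue stands for more. NOTCH2, with 8 to 9 peaks, is dark in every column, while 20 of the genes have a 0 in KO plus UV.

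Overlapping peaks of the 4 lists on one transcript were joined into 170 member regions. All 4 lists held 56 of them (32.9%, 26.3 to 40.3), against 25.7% of all regions, and 43 (25.3%, 19.4 to 32.3) came from 1 list, against 31.6%. Peaks were joined in chains, so the peaks of a region need not all overlap one another. Under the stricter overlap setting of the last section these member shares were 27.2% and 31.9%, and with nearby peaks merged 36.3% and 21.9%. Shares of all regions under these settings are not given, so whether the differences from all regions remain was not tested. A region held by all 4 lists was present on 34 members (56.7%, 44.1 to 68.4), against 38.9% of all genes. By pathway, all 4 lists held 13 of 25 regions on NOTCH genes, 25 of 79 on genes with TGF-beta or BMP family names and 18 of 66 on genes with WNT family names or the LRP prefix. Without members that share only the start of a symbol, described further below, the last counts were 23 of 72 and 12 of 49. Every list but KO plus UV held 22 regions (12.9%, against 12.4% of all regions). KO minus UV alone held 15 (8.82%, against 8.68%), WT minus UV alone 13 (7.65%, against 8.53%) and the pair of WT lists alone 13 (7.65%, against 7.9%). These shares were close to those of all regions. WT plus UV alone held 7 (4.12%, 2.01 to 8.25), against 10.8%.

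Among the TGF-beta and BMP ligands, 2 of 7 carried a peak in every list. TGFB1, the founding TGF-beta ligand (chromosome 19, 41330323 to 41353922, GRCh38), had 1 wide peak in each list, at bases 139 to 584 and 141 to 583 in WT without and with UV, and at 151 to 659 and 151 to 363 in KO without and with UV. The peak thus began between bases 139 and 151 in all 4 lists, and the KO plus UV peak was the shortest. BMP4, a ligand of bone and limb development (chromosome 14, 53949736 to 53956891), had the same pair of peaks throughout: 981 to 1187 and 1273 to 1478 in WT minus UV, and 991 to 1180 and 1273 to 1476 in KO plus UV, with the other lists within 10 bases of these. Neither ligand differed between conditions by more than the ends of its peaks.

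The other ligands differed by list. TGFB2 carried 4, 5, 4 and 0 peaks. BMP2, which drives bone formation (chromosome 20, 6767686 to 6780246), had a WT minus UV peak at 1571 to 1670. In WT plus UV it had peaks at 431 to 590, 1338 to 1500 and 1588 to 1802, and in either KO list 0. BMP6 had a peak at bases 1 to 200 in both WT lists and none in the KO lists. BMP7 had 0, 1, 1 and 1 peaks, with the WT plus UV and KO plus UV peaks near the start, at 52 to 224 and 59 to 225, and the KO minus UV peak at 1987 to 2170. TGFB3 had a single peak, at 1075 to 1250 in WT plus UV. BMP1, a protease that cuts procollagens and BMP antagonists rather than a ligand, carried 2, 3, 2 and 2 peaks.

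All 4 type I receptors carried a peak in every list, and 2 of 4 type II receptors did. ACVR1B, a type I receptor of activin (chromosome 12, 51951699 to 51997078), had 4, 3, 4 and 4 peaks. Those at 1789 to 2061, 2621 to 2794 and 2882 to 3000 in WT minus UV had an overlapping peak in each other list. ACVR1, BMPR1A and TGFBR1 carried 2, 1, 2 and 1 peaks, 2, 3, 2 and 3, and 3, 2, 2 and 1. The type II receptors with a peak in every list were BMPR2, with 5, 3, 6 and 4, and TGFBR2, with 3, 5, 3 and 3. BMPR2 (chromosome 2, 202376327 to 202567749) had 550 bases under peaks in WT plus UV and 1292 in KO minus UV, the widest range of peak bases among the type I and type II receptors. ACVR2A, an activin type II receptor (chromosome 2, 147844517 to 147930822), had peaks at 1637 to 1846 and 1847 to 2035 in WT cells without UV, at 1611 to 1830 and 1931 to 2078 with it, and none in KO. Its relative ACVR2B had 3, 1, 3 and 0 peaks. The co-receptor TGFBR3 had 1 peak of 130 bases, in WT minus UV.

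Among receptor SMADs, which carry the signal from the receptors, 4 of 5 had a peak in every list. SMAD5, of the BMP branch (chromosome 5, 136132845 to 136182733), was the most covered, with 1267, 881, 982 and 380 bases under 6, 5, 5 and 2 peaks. Its first 3 peaks, at 1 to 121, 275 to 488 and 489 to 678 in WT minus UV, returned almost base for base in WT plus UV and KO minus UV, but of these only the last, at 501 to 679, was listed in KO plus UV. SMAD3, of the TGF-beta branch (chromosome 15, 67065602 to 67195169), had 3, 3, 4 and 4 peaks. Bases 3281 to 3440 and 5855 to 6001 lay under a peak in all 4 lists. SMAD9 carried 2 peaks in every list, for example at 378 to 563 and 761 to 960 in WT minus UV, with their KO plus UV counterparts at 376 to 550 and 771 to 920. SMAD1 carried 3, 3, 3 and 2.

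SMAD2, SMAD4 and SMAD7 each lacked peaks in at least 1 list. SMAD2 had peaks at 389 to 565 and 1623 to 1872 in WT minus UV, overlapping peaks in WT plus UV and KO minus UV, and none in KO plus UV. SMAD4, the shared partner of the receptor SMADs, had 2, 1, 3 and 0. SMAD7, an inhibitor that is itself induced by TGF-beta (chromosome 18, 48919853 to 48950965), had a WT minus UV peak at 271 to 516. In WT plus UV that peak was listed at 272 to 516 between neighbours at 143 to 271 and 517 to 679, and in KO there were none. The other inhibitor, SMAD6, had 1, 1, 2 and 1 peaks. WT minus UV, WT plus UV and KO minus UV each held one near 991 to 1290. The KO plus UV peak lay elsewhere, at 81 to 184, and overlapped the other KO minus UV peak, at 1 to 130.

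Of 7 WNT ligands with a peak, WNT6 alone had one in every list, with 1, 2, 1 and 1. Of the 19 protein-coding WNT genes in the reference, the other 12 had no peak in any list. WNT5A, a ligand of beta-catenin-independent signalling (chromosome 3, 55465715 to 55505263), had 2, 1, 3 and 0 peaks, and the widest lay at 1461 to 1818, 1451 to 1790 and 1421 to 1814 in the first 3 lists. WNT3 (chromosome 17, 46762506 to 46818692) had no peak in WT minus UV or KO plus UV. In WT plus UV its peaks lay at 851 to 1040 and 1210 to 1391, and in KO minus UV they lay at 756 to 1079 and 1203 to 1381. WNT10B had 1 peak in each WT list, at 1705 to 1906 and 1698 to 1908, and none in KO. WNT3A, WNT11 and WNT5B each had 1 peak in a single list: WT minus UV, WT plus UV and KO plus UV respectively.

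Frizzled receptors were listed for 8 of 10 genes. FZD1, FZD4, FZD6 and FZD7 carried peaks in every list. FZD4 (chromosome 11, 86945679 to 86955395) varied most, with 5, 1, 4 and 3 peaks. Its WT plus UV peak, at 1291 to 1674, overlapped the WT minus UV peaks at 1106 to 1320 and 1361 to 1674. FZD1 carried 2 peaks in each list and FZD6 3, 2, 3 and 2. The WT minus UV peaks of FZD1 lay at 1 to 110 and 2361 to 2590. The other lists lacked the first of these and held a peak within 2081 to 2330 instead. FZD7 had a peak over bases 1876 to 2118 in all 4 lists, and another in KO plus UV. FZD5 carried 3, 3, 3 and 0 peaks and FZD3 3, 2, 0 and 0. FZD2 and FZD8 had peaks in every list but WT minus UV, with 0, 1, 2 and 1 and with 0, 1, 1 and 1. FZD8, for example, was listed at 2071 to 2260, 2061 to 2280 and 2061 to 2300 in those 3 lists.

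The WNT co-receptor LRP6 (chromosome 12, 12116025 to 12267044) was the most covered gene of its pathway, with 1486, 1140, 1653 and 656 bases under 7, 5, 8 and 3 peaks. Peaks at 220 to 462, 1257 to 1472 and 4662 to 4906 of WT minus UV had a partner in every list, and the KO plus UV list held these 3 alone. Peaks near 1651 to 1860 and 2224 to 2528 were in the other 3 lists, and the one near 6960 to 7121 in the lists without UV alone. LRP5 had 1 peak in every list, near 4791 to 4964, and LRP4 had 2, 1, 1 and 1. AXIN1, a scaffold of the beta-catenin destruction complex, carried 2, 1, 2 and 2 peaks. AXIN2, a feedback target of WNT signalling with the same role (chromosome 17, 65528563 to 65561648), carried 2, 3, 0 and 2. Its WT plus UV peaks lay at 449 to 770, 834 to 1011 and 2801 to 3036, and those of KO plus UV at 450 to 600 and 2961 to 3062.

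NOTCH2 (chromosome 1, 119911553 to 120069662) had more bases under peaks than any other member, with 2074, 2224, 2142 and 1623 in 8, 8, 8 and 9 peaks. Of its 9 regions, 5 were held by all 4 lists. In WT minus UV its peaks ran from 62 to 295 near the start, then 4361 to 4622 and 4781 to 4981, and 5 more from 6371 to 8307. NOTCH3 (chromosome 19, 15159038 to 15200995) had 5, 3, 6 and 5 peaks, and NOTCH1 (chromosome 9, 136494433 to 136546048) had 5, 5, 4 and 3. On NOTCH3, peaks other than those at the start lay from base 5111 on. A NOTCH1 peak at 6463 to 6695 in WT minus UV started at the same base in both KO lists. Among ligands, JAG1 carried 2, 1, 1 and 2 peaks, with one near 3861 to 4186 in every list. JAG2 (chromosome 14, 105140995 to 105168776) carried 3 peaks in KO minus UV, at 3788 to 3979, 3995 to 4191 and 4512 to 4703, and none elsewhere. No DLL gene, of 3 in the reference, had a peak.

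**Figure D2:**
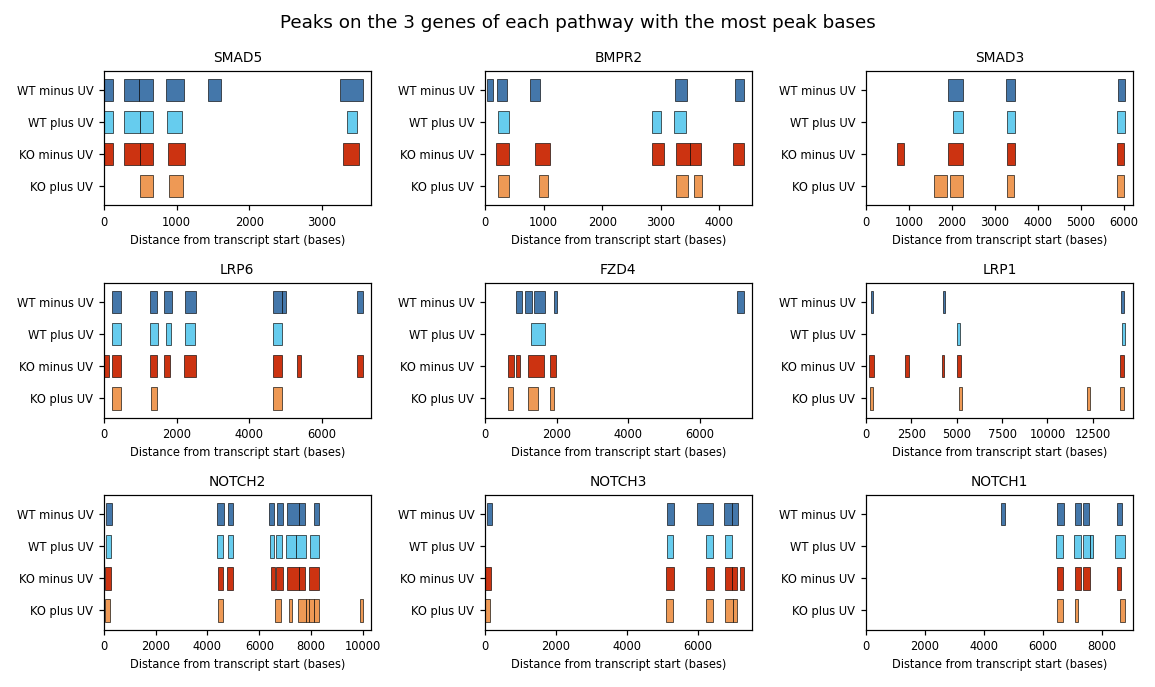
Peak positions on the 3 genes of each pathway with the most bases under peaks over the 4 lists; the horizontal axis is the distance from the transcript start in bases, each row is 1 list and each box is 1 peak. Boxes stand in columns on NOTCH2, LRP6 and SMAD3, while KO plus UV has the fewest boxes on SMAD5 (2) and LRP6 (3).

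NOTCH2NLA, a partial copy of NOTCH2 (chromosome 1, 146148865 to 146229021), had 1 peak in each list, at 7 to 175, 6 to 181, 11 to 160 and 7 to 177. The bases at its annotated start are printed because they recur in NOTCH2, though whether reads of 50 bases match both genes was not tested. They are the first 30 bases of NOTCH2NLA and bases 16 to 45 of NOTCH2, counted from each annotated start in RefSeq (GRCh38.p14, minus strand, 5′ to 3′). They lie at chr1:146228992-146229021 and chr1:120069618-120069647. The same run was found in the windows of 4 genes, NOTCH2, NOTCH2NLA, NOTCH2NLB and NOTCH2NLC, and nowhere else among 35116 windows around gene starts. The sources used here do not give how reads of such copies were assigned, and the NOTCH2NLA peaks are uncertain for that reason.
NOTCH2NLA: acacccgagaaagtttcagccaaacttcgg
NOTCH2: acacccgagaaagtttcagccaaacttcgg

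TGFB2-OT1, the one noncoding member, is uncertain in a similar way. It lies within the bounds of TGFB2 (chromosome 1, 218442626 to 218443995 inside 218345336 to 218444619). It had 1 peak, at 1076 to 1220 in KO minus UV, a list in which TGFB2 also carried 4 peaks.

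Several members share the symbol's start without a settled part in these pathways. BMP2K, a kinase induced by BMP2, had 4, 2, 1 and 1 peaks, and TGFB1I1, a focal adhesion protein, had 1, 2, 1 and 2. Of the LDL receptor relatives, LRP1, an endocytic receptor, had 3, 2, 5 and 4, LRP3 3, 2, 2 and 2, LRP8, a reelin receptor, 2, 2, 1 and 2, LRP10 1, 3, 3 and 2, LRP11 2, 2, 1 and 0, and LRP12 4, 2, 2 and 2. The 51 members left without these 8 and TGFB2-OT1 gave 28 genes with a peak in every list, against 35 of all 60 members and 41.2% of all genes.

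Peaks at the very start of a transcript were found on 18 members. A peak beginning within the first 50 bases made up 11 of 133 member peaks in WT minus UV (8.27%, 4.68 to 14.2) and 11 with UV (8.94%, 5.07 to 15.3). In KO they made up 11 minus UV (8.66%, 4.91 to 14.8) and 7 with UV (7.78%, 3.82 to 15.2). Over all peaks the shares were 9.22%, 10.3%, 9.05% and 10.7%. BMP1, BMPR1A and NOTCH2NLA had such a peak in all 4 lists, and FZD2, LRP3, SMAD1, SMAD5 and TGFBR1 in 3. On BMPR1A, a type I BMP receptor, it spanned 1 to 190, 5 to 220, 1 to 170 and 2 to 190.

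Antibodies against m6A also bind a related mark, m6Am, which sits on a first transcribed A. The first 30 bases at the annotated gene start are therefore shown for members with a start peak in at least 3 lists and 1 window in the RefSeq table, in lower case with the first base in capitals, 5′ to 3′. The windows are chr10:86755763-86755792 for BMPR1A, chr19:33194330-33194359 for LRP3 and chr5:136132845-136132874 for SMAD5 (GRCh38.p14, plus strand).
BMPR1A: Gggccctcgccgctccttatcttatgccgc
LRP3: Gacagacccacggacgctctaccggcggca
SMAD5: Atccgggtcctgggcgagcgggcgccgtgc

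SMAD5 and NOTCH2NLA begin with A, and BMPR1A and LRP3 with G. Among 11 members with a start peak and 1 window, 5 (45.5%) begin with A, against 53.7% of 1414 genes with a start peak, 46.5% of 5406 genes with any peak and 44.3% of 22114 genes of the table. The letters GGAC, the core of the commonest m6A sequence, occur in the 50 bases after the start of 2 of the 11 members, against 21.1%, 19.1% and 18.7% in the same order. On the opposite strand GGAC was found in 2 of the 11, against 16.7%, 19.6% and 17.5%. Whether the listed transcripts begin at these annotated starts was not checked.

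For WT cells, the lists with and without UV bear on whether peaks appear or disappear within minutes of UV damage. With UV alone, 6 members carried a peak (10.0%, 4.66 to 20.1), against 17.4% of all genes: WNT3, FZD8, WNT11, TGFB3, BMP7 and FZD2. Without UV alone, 2 did (3.33%, 0.919 to 11.4), against 8.61%: TGFBR3 and WNT3A. Of these 8 members, WNT3 had 2 peaks and the other 7 had 1. Positions on WNT3, FZD8, BMP7 and TGFB3 are given above, WNT11 had its peak at 1321 to 1497, and those of TGFBR3 and WNT3A lay at 2991 to 3120 and 2601 to 2815. FZD2 had a WT plus UV peak at 1 to 118, and FZD2, FZD8 and BMP7 were listed in both KO lists as well.

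Peak by peak, 23 of 123 member peaks in WT plus UV (18.7%, 12.8 to 26.5) overlapped no WT minus UV peak by even 1 base, against 30.0% of all peaks. In the other direction 29 of 133 (21.8%, 15.6 to 29.6) overlapped none, against 22.4%. On members with a peak in both lists the counts were 16 of 116 (13.8%, 8.67 to 21.2) and 27 of 131 (20.6%, 14.6 to 28.3). Over all genes with a peak in both, they were 17.3% and 14.9%. Overlapping peaks had centres a median of 9.75 bases apart for the WT plus UV peaks of members, and 9.5 for all peaks. Among members in both lists, TGFBR2, SMAD7, BMP2 and LRP10 had 2 peaks more with UV. FZD4 had 4 fewer, and ACVR2B, BMPR2, BMP2K, LRP6, LRP12 and NOTCH3 had 2 fewer. Some of these differences come from peaks that are split or joined. TGFBR2 had a peak at 2051 to 2320 without UV, and peaks at 2011 to 2160 and 2171 to 2300 with it. LRP12 had peaks at 2271 to 2445 and 2454 to 2693 without UV, and one at 2171 to 2505 with it. The added peaks of BMP2, in contrast, overlapped no peak without UV. The WT plus UV list rests on 4 IP libraries and the WT minus UV list on 3.

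The same lists were set side by side for the cells labelled METTL3 KO. A peak with UV alone was found on 2 members (3.33%, 0.919 to 11.4), AXIN2 and WNT5B, against 8.62% of all genes. A peak without UV alone was found on 10 (16.7%, 9.31 to 28.0), against 23.8%: ACVR2B, FZD5, JAG2, LRP11, SMAD2, SMAD4, TGFB2, TGFB2-OT1, WNT3 and WNT5A. Of these 10, 6 had at least 3 peaks in KO minus UV. Of KO plus UV member peaks, 16 of 90 (17.8%, 11.2 to 26.9) overlapped no KO minus UV peak, against 22.6% of all peaks. Of KO minus UV member peaks, 53 of 127 (41.7%, 33.5 to 50.4) overlapped no KO plus UV peak, against 47.0%. Of those 53, 28 lay on members present in both lists, which is 27.5% of the peaks on such members (19.7 to 36.8), against 25.1% over all genes present in both.

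Every list but KO plus UV held a peak on 7 members (11.7%, 5.77 to 22.2), against 13.5% of all genes. They were TGFB2, ACVR2B, SMAD2, SMAD4, WNT5A, FZD5 and LRP11. FZD5, a Frizzled receptor (chromosome 2, 207762598 to 207769906), had 712, 710 and 696 bases under 3 peaks each in the lists WT minus UV, WT plus UV and KO minus UV. TGFB2 had 781, 733 and 700 bases and SMAD2 427, 422 and 390. The other 4 members differed more among these lists. ACVR2B had 664, 159 and 604 bases, and WNT5A had 478, 340 and 730. SMAD4 had 289, 169 and 427 bases, and LRP11 had 452, 412 and 258. KO plus UV rests on 2 IP libraries, and the part of library number in its missing peaks was not tested.

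**Figure D3:**
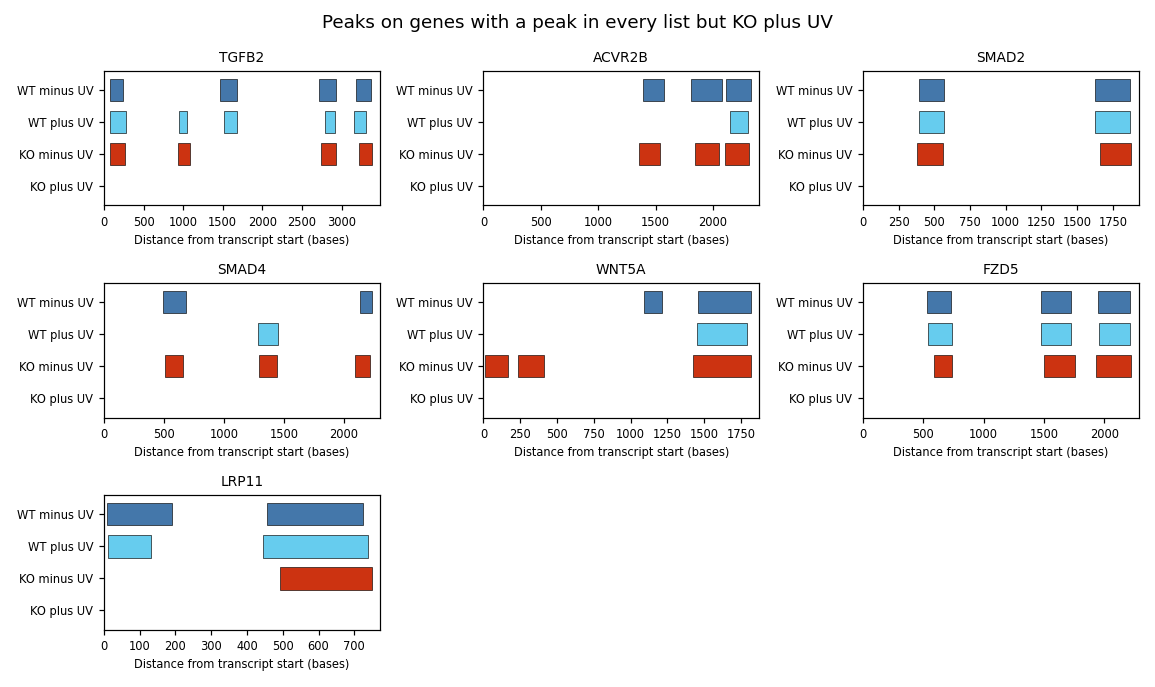
Peak positions on the 7 genes with a peak in every list but KO plus UV; axes and boxes as distance from the transcript start in bases, 1 row per list. FZD5 and SMAD2 show the same columns of 3 and 2 peaks in the upper 3 rows, and SMAD4 shows 2, 1 and 3 peaks of which WT plus UV shares none with WT minus UV.

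Without UV, the WT and KO lists bear on which peaks are listed for 1 genotype alone. In WT alone, 9 members carried a peak (15.0%, 8.1 to 26.1), against 16.4% of all genes, and in KO alone 6 did (10.0%, 4.66 to 20.1), against 14.7%. The 9 were ACVR2A, AXIN2, BMP2, BMP6, FZD3, SMAD7, TGFBR3, WNT10B and WNT3A, and the 6 were BMP7, FZD2, FZD8, JAG2, TGFB2-OT1 and WNT3. These lists each rest on 3 IP libraries. Of the WT minus UV member peaks, 36 of 133 (27.1%, 20.2 to 35.2) overlapped no KO minus UV peak, against 32.1% of all peaks. Of the KO minus UV member peaks, 29 of 127 (22.8%, 16.4 to 30.9) overlapped no WT minus UV peak, against 31.1%.

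With UV, 16 members carried a peak in WT alone (26.7%, 17.1 to 39.0), against 31.4% of all genes. WNT5B was the only one with a peak in KO alone (1.67%, 0.295 to 8.86), against 5.68%. The 16 included the 7 just named, the 6 described next, TGFB3, WNT11 and WNT3. Of WT plus UV member peaks, 51 of 123 (41.5%, 33.1 to 50.3) overlapped no KO plus UV peak, against 51.0%, and of KO plus UV member peaks 19 of 90 (21.1%, 14.0 to 30.6) overlapped no WT plus UV peak, against 19.3%. Centres of overlapping peaks were a median of 16.5 bases apart for members and 12.5 for all peaks.

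Both WT lists, but neither KO list, held a peak on 6 members (10.0%, 4.66 to 20.1), against 7.12% of all genes: ACVR2A, BMP2, BMP6, FZD3, SMAD7 and WNT10B. The reverse, both KO lists and no WT list, held for 0 members (upper bound 6.02%), against 2.0%. FZD3, a Frizzled receptor of planar cell polarity (chromosome 8, 28494212 to 28574258), had peaks at 439 to 640, 1541 to 1640 and 2304 to 2479 without UV in WT, and at 441 to 648 and 2301 to 2482 with UV. The paired positions on FZD3, ACVR2A, BMP6, SMAD7 and WNT10B overlapped between the WT lists, and those of BMP2 also did at 1571 to 1670 and 1588 to 1802. Without the KO plus UV list, 7 members had a peak in each WT list and not in KO minus UV, AXIN2 being the addition. The matching share of all genes is not given, so this count is not read as a trait of the members.

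**Figure D4:**
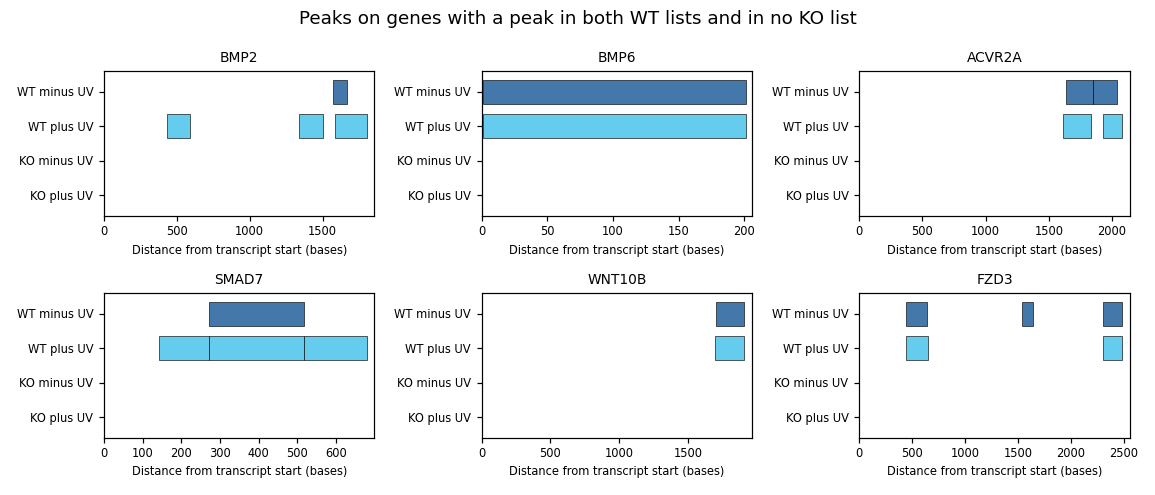
Peak positions on the 6 genes listed for WT cells with and without UV but in no KO list; the horizontal axis is the distance from the transcript start in bases, each row is 1 list and each box 1 peak. The WT rows share at least 1 column of boxes on all 6 genes and the KO rows are empty.

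**Figure D5:**
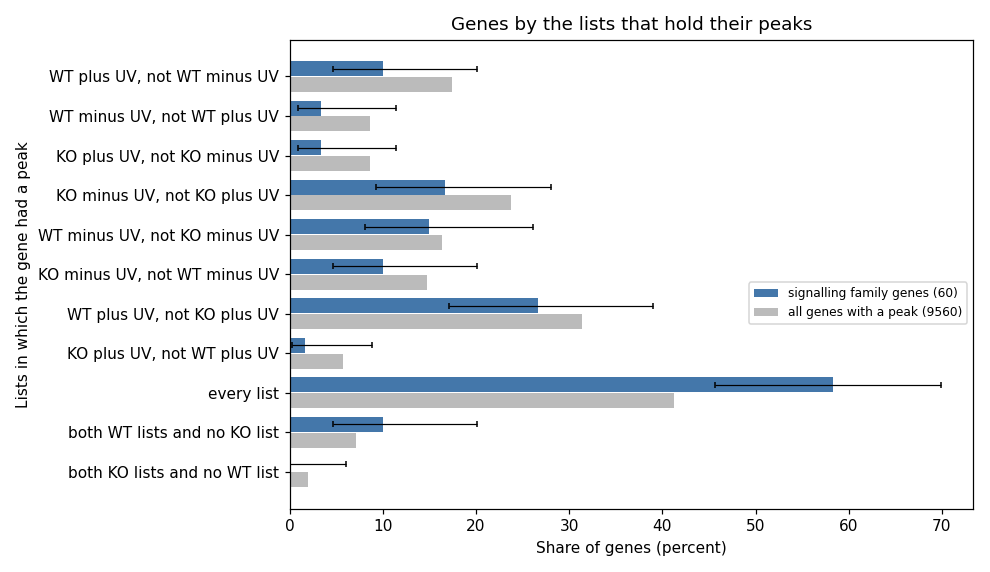
Share of the 60 signalling family genes (blue, with 95% Wilson intervals) and of all 9560 genes with a peak (grey) by the lists in which they had a peak, in percent. The blue bar is longer for every list (58.3% against 41.2%) and for both WT lists without any KO list (10.0% against 7.12%), and shorter in the other rows.

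Other genes of the 3 pathways were taken from a list of 99 partners, of which 81 had a peak in any list and 45 of those (55.6%, 44.7 to 65.9) in every list, against 41.2% of all genes. The WT lists minus and plus UV held 69 (85.2%, against 74.6%) and 72 (88.9%, against 83.4%). The KO lists held 71 (87.7%, against 72.9%) and 57 (70.4%, against 57.7%). In the TGF-beta and BMP pathway, 26 of 30 partners had a peak. PMEPA1, a feedback inhibitor of TGF-beta signalling, had the most bases under peaks, with 3, 2, 3 and 3 peaks, followed by LEMD3, an inner nuclear membrane protein that binds SMADs, with 5, 5, 6 and 0. LTBP2 had 4, 3, 2 and 2, RGMB 1, 2, 3 and 2, the SMAD repressor SKIL 5, 4, 3 and 0, and ZFYVE9 4, 5, 2 and 0.

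In the WNT pathway, 28 of 36 partners had a peak. ZNRF3, a ubiquitin ligase that removes Frizzled receptors, had 6, 4, 5 and 0 peaks, and the kinase GSK3B had 4, 4, 2 and 4. LGR4 had 5, 2, 2 and 3, BTRC 4, 2, 5 and 3, SFRP1, a secreted WNT antagonist, 4, 4, 0 and 2, and BCL9 3, 3, 5 and 1. CTNNB1, which encodes beta-catenin, had 2 peaks in each list, and the destruction complex scaffold APC had 4, 2, 4 and 0. In the NOTCH pathway, 27 of 33 had a peak. DTX4 had 4, 4, 4 and 0, SPEN, a corepressor, 7, 4, 0 and 3, and the coactivator MAML1 4, 5, 4 and 0. ADAM10, which cuts NOTCH receptors, had 2, 2, 2 and 3, and POFUT1 3, 2, 2 and 3.

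Some partners were listed in 1 condition of a pair, and their counts are out of the 81. In WT, 6 had a peak with UV alone (7.41%, 3.44 to 15.2), against 17.4% of all genes, with ITCH, APH1B, INHBA and BAMBI among them. Without UV alone, RFNG, ROR1 and DVL3 had one (3.7%, 1.27 to 10.3), against 8.61%. In KO, 8 had a peak with UV alone (9.88%, 5.09 to 18.3), against 8.62%, among them SPEN, SFRP1, TGIF1 and RYK. Without UV alone, 22 did (27.2%, 18.7 to 37.7), against 23.8%, among them LEMD3, ZNRF3, DTX4 and MAML1. The KO shares were near those of all genes.

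Without UV, 9 partners had a peak in WT alone (11.1%, 5.96 to 19.8), against 16.4%, among them SPEN, SFRP1, RYK and HEY1. In KO alone, 11 did (13.6%, 7.76 to 22.7), against 14.7%, among them ENG, POGLUT1, INHBA and ITCH. With UV the counts were 18 in WT alone (22.2%, 14.5 to 32.4), against 31.4%, and 3 in KO alone (3.7%, 1.27 to 10.3), against 5.68%. HEY1, a NOTCH target gene, was the 1 partner found in both WT lists but neither KO list (1.23%, 0.218 to 6.67), against 7.12%. ENG and POGLUT1 were the 2 found the other way round (2.47%, 0.68 to 8.56), against 2.0%.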

How the data were processed

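RNA bound by an m6A antibody and its input were sequenced from 24 samples in 8 groups. Per the submitters' processing notes, the aligner was TopHat2 2.0.14 and the build hg38. The sources used here do not give the peak caller, the use of the inputs or how the replicates of a condition were combined. In the lists, the deposited values have no unit of signal (other): transcript, first and last base of each peak, 1 list per condition over all its replicates. Each transcript was matched to a symbol through a RefSeq table (GRCh38.p14), and 9563 of 9674 (98.9%) matched. Each member had 1 listed transcript. Overlap meant at least 1 shared base on the same transcript. When 10%, 30% and 50% of the 13989 WT minus UV peaks were removed by simulation, the overlap step found 9.59%, 29.2% and 49.0%. The kept peaks were moved by a few bases with unchanged width. This checks the code alone, since split, joined or resized peaks were not simulated.

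Members, partner lists and alternatives were chosen with earlier results of these data known. All members are named. Positions are given for the 3 members of each pathway with the most peak bases, for those in a single WT list (up to 4 each way), for those in the lists of 1 genotype alone, and for others chosen after their values were seen. Partners were named by peak bases (up to 6 per pathway), and up to 4 per comparison and direction, others after their values were seen; 1 partner is not reported here. Alternatives changed the overlap, the width, the bases that count, merging and the members taken. Python 3.11.15, pandas 2.3.3 and scipy 1.17.1 were used.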

Additional observations from a re-analysis of the deposited data

Results flagged for a closer look

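WNT3 was the 1 member with a peak with UV alone in WT and without UV alone in KO. Its peak number differed by 2 with UV in WT cells (0 to 2) and by -2 in KO cells (2 to 0). Among all genes, 432 of 9560 (4.52%) were opposite in this way, in either direction. The difference between the genotypes was not tested, since each condition has 1 list.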

How the results depend on the processing

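Of 103 values recomputed under the alternatives, 98 stayed within 1.5 times the reported count or within the interval of the reported share, including all 25 with the 51 core members, all 10 with an overlap of 50% of the shorter peak, all 10 with peaks within 100 bases merged and both without the KO plus UV list. That last setting, and all settings for members in the lists of 1 genotype alone, were chosen after seeing the data. Large counts could hardly leave the range when only 9 members were dropped, and dropping a list cannot lower the number in every list. Some values that stayed lay at or near the limit. With an overlap of 50% of the shorter peak, 27.2% of member regions were in all 4 lists, instead of 32.9%. The share in 1 list was then 31.9% instead of 25.3%. With at least 200 bases of peak, members without UV alone in KO numbered 15 instead of 10. Members with UV alone in WT numbered 4 instead of 6, and such partners 9 instead of 6. When a gene needed at least 200 bases of peak, members without UV alone in WT numbered 5 instead of 2, those in KO alone with UV 2 instead of 1, and those in both KO lists and no WT list 1 instead of 0. With peaks of at least 150 bases, members in KO alone with UV numbered 3, and the share of KO plus UV member peaks without an overlap in WT plus UV was 13.8% instead of 21.1%. These counts are small, and the cause was not tested. No paired analysis was possible because each condition has 1 list without replicate values, and no replicate could be left out for the same reason. The lists hold no depth, and KO plus UV rests on the fewest IP libraries, 2.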
